A study of Mus musculus with 24 samples.

Results

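Neutrophil genes are followed here through mouse skin: S100a8, S100a9, Csf3r, Il1r2, Retnlg, Mmp8, Mmp9, Trem1 and Clec4d, 9 symbols picked by name out of the 18892 gene symbols of the expression table. All 9 were found, and all 9 passed the filter on low values that 13039 genes passed. The skin came from 24 mice, 1 library of poly(A) RNA each, and the 3 treatments and 2 days make 6 groups of 4 mice. Treatment mice were injected daily with dihydrotestosterone (DHT, a potent androgen) and had an extract of HLX (Hanlianxiang, a traditional Chinese medicine formula) put on the skin, model mice were injected daily with DHT and had only the solvent put on the skin, and control mice were injected daily with normal saline and had the same solvent put on the skin. Mice of each treatment were killed at day 15 or at day 10. Every group therefore shared the daily injection and something applied to the skin, and neither an uninjected group nor a group with the extract and no DHT was analysed here. Strain, sex and age are not given in the sources used here.

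Neutrophils are short-lived white blood cells made in the bone marrow, and they enter skin from the blood within hours of injury or infection. Much of their granule content is transcribed in bone marrow precursors and is no longer transcribed in the mature cell, whereas calprotectin, chemokine receptors and cytokine receptors are transcribed in mature cells. Unwounded skin holds few of them. Several of the 9 genes are not confined to neutrophils: keratinocytes and monocytes can express S100a8 and S100a9, and monocytes and macrophages can express Il1r2, Mmp9, Trem1 and Clec4d. In whole skin, a lower level from fewer cells and a lower level from less RNA per cell cannot be told apart.

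Promoters of the 3 genes below are shown because S100a8 and S100a9, neighbours on chromosome 3 that encode the subunits of 1 protein complex, were high in the same libraries, and because Csf3r is the receptor for the growth factor of neutrophils. The sequences run 5′ to 3′ on the strand of the gene, 250 bases before and 50 bases after the annotated start, from RefSeq on build GRCm38.p6, which is not the build the authors aligned to (GRCm39). The S100a8 window is chr3:90668821-90669120 on the plus strand, the S100a9 window chr3:90695672-90695971 on the minus strand and the Csf3r window chr4:126024409-126024708 on the plus strand. Capitals mark matches to a TATA box (TATAAA, on the strand of the gene), to a C/EBP motif (TTNNGNAA, on either strand) and to a PU.1 motif (GAGGAA, on either strand). C/EBP factors and PU.1 are transcription factors of the myeloid lineage.
S100a8: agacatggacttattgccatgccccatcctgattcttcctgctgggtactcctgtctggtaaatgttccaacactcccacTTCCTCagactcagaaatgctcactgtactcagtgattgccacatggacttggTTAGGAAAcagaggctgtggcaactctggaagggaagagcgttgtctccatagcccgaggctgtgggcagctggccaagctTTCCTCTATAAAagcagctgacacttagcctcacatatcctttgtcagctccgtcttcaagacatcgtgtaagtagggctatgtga
S100a9: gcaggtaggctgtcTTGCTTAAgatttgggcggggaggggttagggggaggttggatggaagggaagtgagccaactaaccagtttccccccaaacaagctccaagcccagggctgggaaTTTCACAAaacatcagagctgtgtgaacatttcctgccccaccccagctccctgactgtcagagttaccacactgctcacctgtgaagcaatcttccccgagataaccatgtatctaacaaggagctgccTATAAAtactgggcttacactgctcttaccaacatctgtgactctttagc
Csf3r: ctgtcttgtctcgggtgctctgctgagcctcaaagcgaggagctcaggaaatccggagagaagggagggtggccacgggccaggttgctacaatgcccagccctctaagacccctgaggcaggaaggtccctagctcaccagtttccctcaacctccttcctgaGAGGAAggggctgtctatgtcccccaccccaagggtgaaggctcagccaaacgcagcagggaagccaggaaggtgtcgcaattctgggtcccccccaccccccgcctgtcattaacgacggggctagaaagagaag
S100a8 held a TATA box that began at -30, a C/EBP match at -117 and 2 PU.1 matches, and the marked matches of the 3 windows do not overlap each other. In S100a9 the TATA box began at position 1, the annotated start itself, and there were 2 C/EBP matches and 0 PU.1 matches. Csf3r held 1 PU.1 match, at -86, and none to the other motifs. The table had entries for 8 of the 9 genes, all but Mmp9. Of these 8, 2 held the TATA box, against 8.32% of all 32851 promoters, 6 held the C/EBP motif, against 40.7%, and 5 held the PU.1 motif, against 28.3%. A match is a run of letters and was not tested as a binding site.

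Values are FPKM (fragments counted on a gene, divided by its length in kilobases and by the size of the library) as the authors deposited them. Whole reads could be recovered from the steps between values, and put the libraries at 37000000 to 41100000 reads. Differences are given between group means of log2(FPKM + 1), with the SE of limma, a linear model fitted to every gene, and a gene is said to be called, to rise or to fall where its p, adjusted over all 13039 genes, is under 0.05. Each library had a mean correlation of at least 0.95 with the other libraries of its group across genes. Model day 15 replicate 3 (0.957) and treatment day 15 replicate 3 (0.95) stood farthest from their groups, and results at day 15 are given with and without them, for the lists of other genes where leaving both out changed a call that is named or counted. The kidney gene Kap was at 13.98 to 23.9 FPKM in the 8 control and model libraries of day 10 and at 0 in the other 16, so that whatever this marks cannot be told apart from the difference between treatment and either other group at day 10, or from the difference between days in model and control mice. The Y-linked gene Ddx3y was at 10.4 to 11.5 FPKM in treatment day 15 replicates 1 and 2, against 14.9 to 30.6 in the other 22 libraries. Labels give no batch that would group libraries in these ways.

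S100a8 and S100a9 were the members with the highest mean levels in 5 of the 6 groups, all but control day 10, where Il1r2 stood between them. Their proteins pair to form calprotectin, which fills the neutrophil cytosol, binds calcium and takes up zinc and manganese ions that microbes need. S100a8 was at 64.7, 138, 37.2 and 202 FPKM in treatment day 15 libraries, in the order of replicates 1 to 4, against 133, 48.6, 1235 and 99.8 in model and 58.7, 34.1, 30.4 and 134 in control day 15 libraries. It was at 55.0, 70.4, 94.0 and 72.8 FPKM in treatment day 10 libraries, against 40.0, 60.3, 115 and 38.7 in model and 19.4, 16.9, 23.9 and 24.6 in control day 10 libraries. At day 10 all treatment and model libraries were above all control libraries, and at day 15 the 3 groups overlapped.

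S100a9 was at 58.6, 125, 8.55 and 205 FPKM in treatment day 15 libraries, against 140.0, 36.9, 1569 and 109 in model and 33.3, 11.6, 14.2 and 124 in control day 15 libraries. It was at 58.5, 69.8, 88.8 and 67.7 FPKM in treatment day 10 libraries, against 41.3, 59.8, 139 and 31.8 in model and 3.19, 4.91, 7.43 and 7.71 in control day 10 libraries. The lowest model library of day 10 was thus above the highest control library of that day. At day 15 model replicate 3 held more S100a9 than any other of the 24 libraries, and treatment replicate 3 was below all control libraries of its day.

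**Figure D1:**
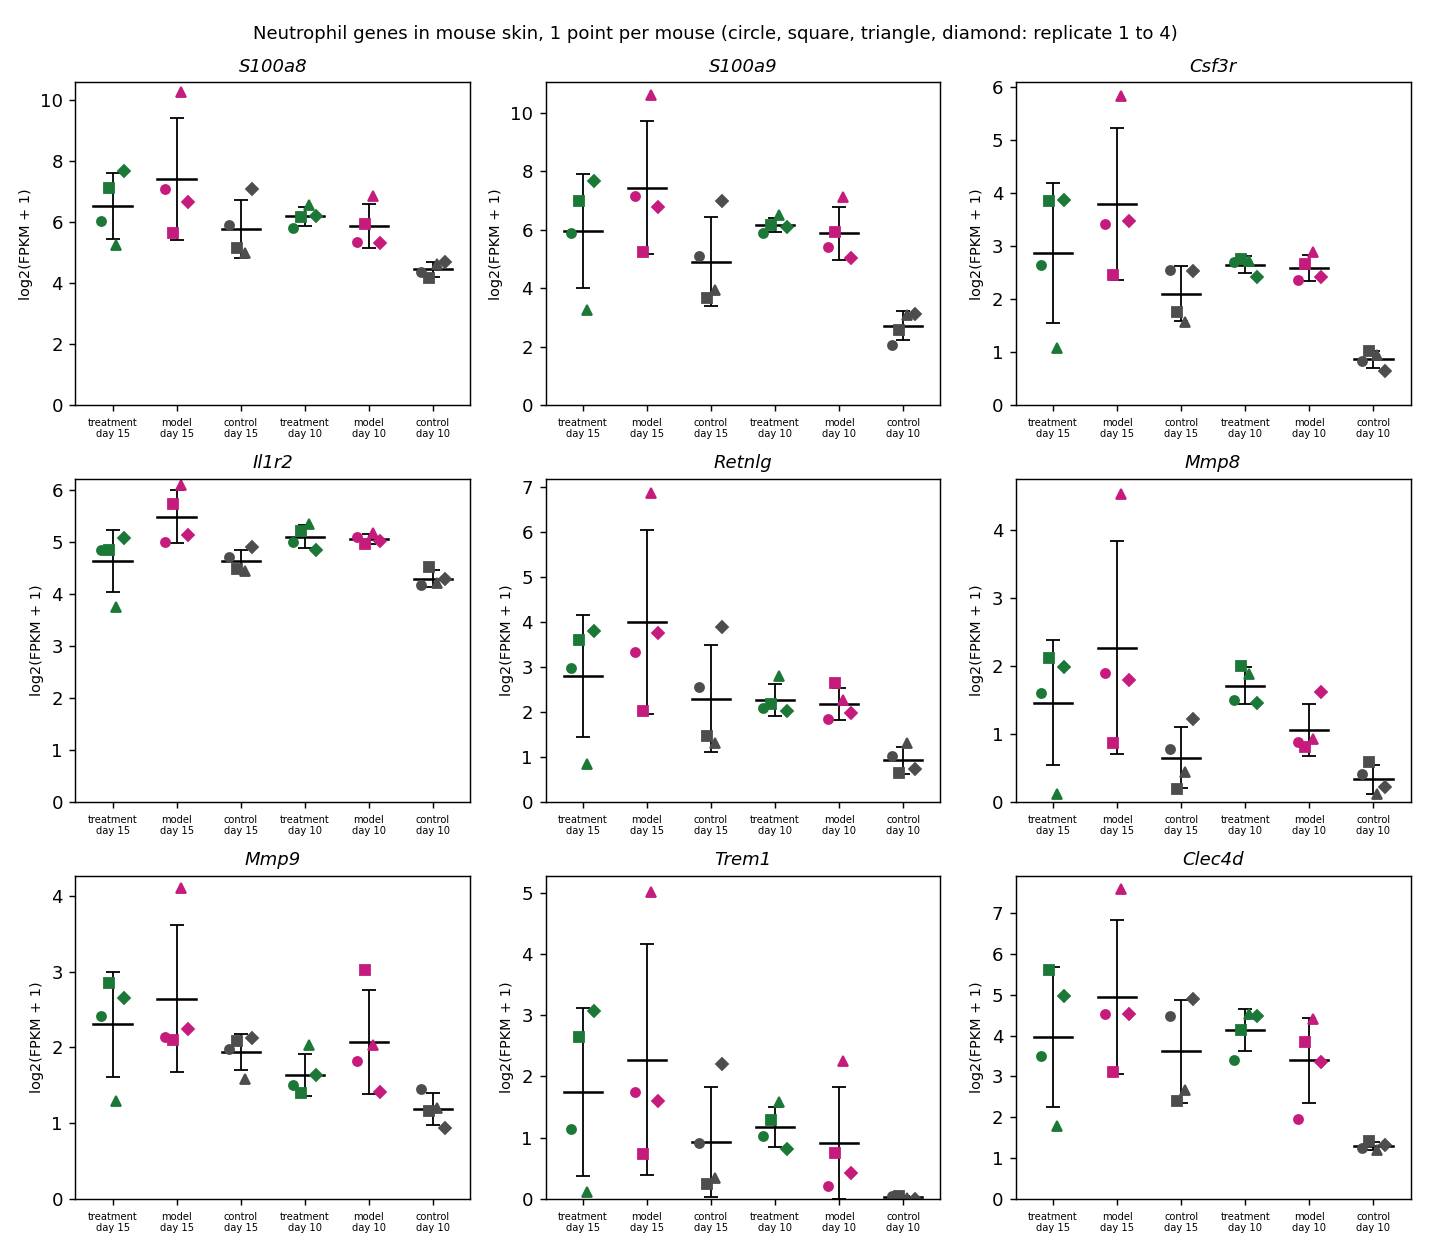
Level of each of the 9 genes as log2(FPKM + 1) in each mouse (points, 1 symbol per replicate number), with the group mean (bar) and SD (whiskers, n = 4), for treatment, model and control skin at day 15 and day 10. The triangle of model day 15 is the highest point of every panel, and the 4 control points of day 10 sit below all model and treatment points of day 10 in all panels but that of Mmp9.

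The cytokine receptors of the list are Csf3r, the receptor for G-CSF (the factor that drives neutrophil production and release), and Il1r2, a decoy receptor that binds interleukin-1 without signalling. Csf3r was at 5.27, 13.5, 1.11 and 13.6 FPKM in treatment day 15 libraries, against 9.69, 4.48, 55.9 and 10.2 in model and 4.88, 2.39, 1.97 and 4.80 in control day 15 libraries. It was at 5.54, 5.77, 5.62 and 4.31 FPKM in treatment day 10 libraries, against 4.14, 5.31, 6.45 and 4.31 in model and 0.779, 1.04, 0.917 and 0.569 in control day 10 libraries. The day 10 levels of treatment and model lay in the same range, and the highest control library of that day was at 1.04.

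Il1r2 varied by at most 2.63 times between mice of 1 group. It was at 27.6, 27.7, 12.5 and 32.7 FPKM in treatment day 15 libraries, against 30.8, 51.8, 66.9 and 34.3 in model and 25.0, 21.4, 20.6 and 29.1 in control day 15 libraries. It was at 31.0, 36.1, 39.5 and 27.8 FPKM in treatment day 10 libraries, against 33.3, 29.96, 35.1 and 31.5 in model and 17.0, 21.9, 17.4 and 18.5 in control day 10 libraries. Model and control did not overlap at either day, and treatment overlapped control at day 15 but not at day 10. Its level in control day 10 skin, 18.7 ± 2.22 FPKM (SD, n = 4), was close to that of S100a8 (21.2 ± 3.71) and above that of S100a9 (5.81 ± 2.15), while Csf3r was at 0.826 ± 0.201. The cells that held Il1r2 were not identified.

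Among the secreted proteins, Retnlg encodes a resistin-like protein of mouse neutrophils, Mmp8 the neutrophil collagenase and Mmp9 gelatinase B, and the last 2 cut collagens of the skin matrix. Retnlg was at 6.89, 11.1, 0.799 and 12.99 FPKM in treatment day 15 libraries, against 9.11, 3.05, 115 and 12.5 in model and 4.84, 1.77, 1.47 and 13.7 in control day 15 libraries. At day 10 it ranged over 3.04 to 5.92 FPKM in treatment, 2.58 to 5.23 in model and 0.567 to 1.49 in control libraries, the last on 13 to 34 reads. Control day 15 replicate 4 was the second highest of all 24 libraries, so control skin of day 15 was not uniformly low.

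Mmp8 was the lower of both collagen-cutting enzymes in control skin, at 0.0869 to 0.508 FPKM on 8 to 47 reads at day 10. Its day 10 range was 1.74 to 3.03 FPKM in treatment and 0.759 to 2.08 in model libraries, both above all control libraries of that day. At day 15 it was at 2.04, 3.37, 0.088 and 2.98 FPKM in treatment, 2.74, 0.823, 22.1 and 2.48 in model and 0.711, 0.143, 0.353 and 1.33 in control libraries. Mmp9 was at 4.35, 6.20, 1.46 and 5.29 FPKM in treatment, 3.39, 3.27, 16.2 and 3.73 in model and 2.93, 3.22, 2.005 and 3.34 in control day 15 libraries. Mmp9 was the 1 member whose model and control libraries overlapped at day 10, with 1.63 to 3.08 FPKM in treatment, 1.66 to 7.12 in model and 0.912 to 1.72 in control libraries.

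The innate surface receptors are Trem1, which amplifies Toll-like receptor signals through the adaptor Tyrobp, and Clec4d, a C-type lectin that recognises fungal and mycobacterial surfaces and signals through Fcer1g. Trem1 was at 1.21, 5.28, 0.0823 and 7.42 FPKM in treatment day 15 libraries, against 2.37, 0.657, 31.4 and 2.04 in model and 0.892, 0.186, 0.269 and 3.59 in control day 15 libraries. It was at 1.03, 1.44, 1.98 and 0.752 FPKM in treatment day 10 libraries, against 0.164, 0.689, 3.75 and 0.347 in model and 0.0299, 0.0368, 0.00739 and 0 in control day 10 libraries, the last on 0 to 5 reads. Trem1 was close to absent from control skin at day 10, and no fold is given against so few reads.

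Clec4d was at 10.3, 48.1, 2.42 and 30.3 FPKM in treatment day 15 libraries, against 22.2, 7.62, 191 and 22.3 in model and 21.1, 4.31, 5.39 and 28.7 in control day 15 libraries. It was at 9.59, 16.7, 22.3 and 21.2 FPKM in treatment day 10 libraries, against 2.89, 13.4, 20.2 and 9.18 in model and 1.37, 1.69, 1.28 and 1.49 in control day 10 libraries. The control libraries of day 10 lay within 1.32 times of each other and below every other library. Order by mean level changed little between groups: S100a8, S100a9 and Il1r2 were the highest 3 in 5 of 6 groups, and Clec4d took the place of Il1r2 in model day 15.

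DHT injection was set against saline injection, with the solvent and no extract on the skin in both. At day 10 all 9 genes had a higher mean in model than in control skin, with a median log2 difference of 1.26, against -0.02 over all genes tested. In 8 of the 9, all but Mmp9, every model library was above every control library, while 12.5% of all genes tested were higher in this way. S100a9 averaged 68.0 ± 48.8 FPKM in model and 5.81 ± 2.15 in control skin (SD, n = 4 each), a log2 difference of 3.17 (SE 0.95, adjusted p = 0.0324, limma). Csf3r averaged 5.05 ± 1.06 FPKM in model and 0.826 ± 0.201 in control skin, a log2 difference of 1.72 (SE 0.55, adjusted p = 0.0431, limma). Il1r2 averaged 32.5 ± 2.25 FPKM in model and 18.7 ± 2.22 in control skin, a log2 difference of 0.77 (SE 0.23, adjusted p = 0.0349, limma).

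These 3 genes rose, and 0 fell, against 6.79% of all genes called higher and 7.04% called lower. The other 6 missed the threshold with adjusted p between 0.0927 and 0.43 in limma, Clec4d the nearest with 11.4 ± 7.28 FPKM in model and 1.46 ± 0.178 in control skin (log2 difference 2.10, SE 0.83). S100a8 had 63.4 ± 35.5 FPKM in model and 21.2 ± 3.71 in control skin (log2 difference 1.41, SE 0.70, adjusted p = 0.182), a smaller difference than that of its partner. The 8 libraries of this comparison all carried Kap. The count of 3 fell to 0 without control day 10 replicate 1, 3 or 4 or model day 10 replicate 2, 3 or 4. It was 7 in a fit of only these 8 libraries, and 1 with voom, limma's method for counts, on the recovered reads.

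At day 15 all 9 genes again had a higher mean in model than in control skin, with a median log2 difference of 1.62, against -0.03 over all genes tested. Only Il1r2 was called, at 46.0 ± 16.7 FPKM in model and 24.01 ± 3.88 in control skin, a log2 difference of 0.85 (SE 0.23, adjusted p = 0.0289, limma). It was also the only member whose groups did not overlap, where 7.89% of all genes were higher without overlap and 4.23% were called higher. S100a9 averaged 464 ± 738 FPKM in model and 45.8 ± 53.2 in control skin, so that its SD exceeded its mean in both groups (log2 difference 2.53, SE 0.95, adjusted p = 0.0827, limma). Csf3r (log2 difference 1.69, adjusted p = 0.0527) and Mmp8 (1.62, adjusted p = 0.0518) missed the threshold narrowly in limma.

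Model replicate 3 raised the day 15 means. Without it S100a8 averaged 93.9 ± 42.7 FPKM in the 3 other model libraries (SD), S100a9 95.2 ± 52.9 and Csf3r 8.11 ± 3.15. It held 13.2 times as much Trem1 as the next highest model library of its day, 11.2 times as much S100a9, 5.51 times as much Csf3r and 1.29 times as much Il1r2. Leaving it out ended the call of Il1r2 (log2 difference 0.65, adjusted p = 0.104, limma), as did leaving out model replicate 2 (adjusted p = 0.0772) or control replicate 2 (0.0774) or 3 (0.0919), over a range of 0.00971 to 0.104 for the 8 single libraries left out. Csf3r and Mmp8 were called when model replicate 1 or 2 was left out. The count of 1 became 3 on leaving out model replicate 1 and 2 on leaving out model replicate 2, and 0 without model replicate 3 or control replicate 2 or 3. With model and treatment replicates 3 left out together, 3 members were called, Csf3r (adjusted p = 0.0402), Mmp8 (log2 difference 0.87, adjusted p = 0.0447) and Il1r2.

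Whether the difference between model and control itself differed between days was tested as an interaction, and 0 of the 9 genes were called by limma, 0 at an unadjusted p under 0.05 and 0 by voom, against 0% of all genes.

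**Figure D2:**
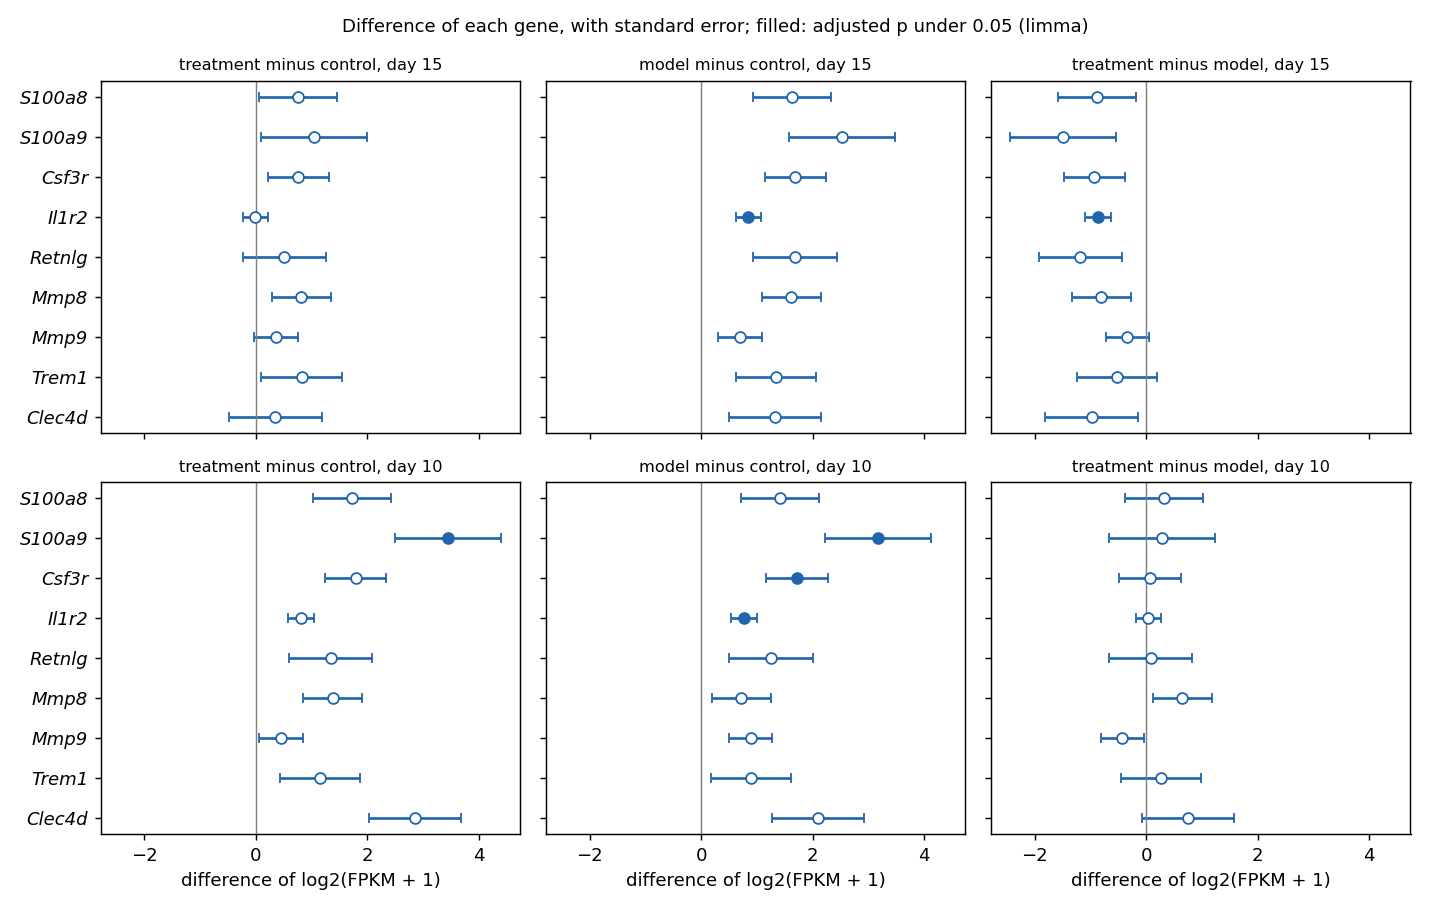
Difference of log2(FPKM + 1) for each of the 9 genes (points) with the standard error of the fit (bars), in 6 panels for treatment minus control, model minus control and treatment minus model at day 15 (top) and day 10 (bottom). Filled points passed an adjusted p of 0.05 in limma, 6 of the 54, and all points of treatment minus model at day 15 lie left of 0.

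The extract was set against solvent on DHT-injected skin to learn what it changed. At day 10 the 9 genes differed little between treatment and model skin, with log2 differences of -0.43 to 0.75 and a median of 0.26, against -0.03 over all genes. None was called by limma (adjusted p from 0.7 to 0.981), 0 at an unadjusted p under 0.05 and 0 by voom, against 0.192% of all genes, and in none did the groups separate, where 2.75% of all genes were higher and 6.24% lower without overlap. S100a9 averaged 71.2 ± 12.7 FPKM in treatment and 68.0 ± 48.8 in model skin. Csf3r averaged 5.31 ± 0.676 FPKM in treatment and 5.05 ± 1.06 in model skin, and Il1r2 33.6 ± 5.18 in treatment and 32.5 ± 2.25 in model skin. The mean of Mmp8 was 2.32 ± 0.63 FPKM in treatment and 1.14 ± 0.624 in model skin (log2 difference 0.65, SE 0.53). A p that misses the threshold does not show equal levels, and the SE of the S100a9 difference (0.28) was 0.95. Kap separated these groups as well, and its part in the result was not tested.

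At day 15 all 9 genes had a lower mean in treatment than in model skin, with a median log2 difference of -0.89, against -0.02 over all genes. Only Il1r2 passed the test, at 25.1 ± 8.78 FPKM in treatment and 46.0 ± 16.7 in model skin, a log2 difference of -0.86 (SE 0.23, adjusted p = 0.0158, limma). Of all genes 9.32% were called lower and 10.3% higher, so 1 call among 9 genes was near the background. S100a9 averaged 99.3 ± 85.0 FPKM in treatment and 464 ± 738 in model skin (log2 difference -1.49, SE 0.95, adjusted p = 0.268). The groups of all 9 genes overlapped, where 4.79% of all genes were lower without overlap, and for Il1r2 the overlap was treatment replicate 4 (32.7 FPKM) above model replicate 1 (30.8).

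The sign of 8 of the 9 differences depended on a pair of libraries, picked after the values were seen. Treatment replicate 3 was below the other 3 treatment libraries of day 15 for all 9 genes, by at least 1.74 times for S100a8 and by 23.2 times for Mmp8, and model replicate 3 was above the other model libraries for all 9. With both left out, 8 of the 9 differences turned positive, 0.49 for S100a8, 0.47 for S100a9, 0.34 for Csf3r, 0.42 for Retnlg, 0.38 for Mmp8, 0.48 for Mmp9, 0.93 for Trem1 and 0.63 for Clec4d, and none of these was called. Leaving out the highest model and the lowest treatment library could only raise the differences, so a rise was fixed by the choice. Il1r2 remained lower at -0.37 with an adjusted p of 0.118 in limma. Without model replicate 3 alone Il1r2 was at -0.66 (adjusted p = 0.0591) and without treatment replicate 3 alone at -0.57 (adjusted p = 0.0401), and its adjusted p ran from 0.00625 to 0.0591 over the 8 single libraries left out. In a fit of only these 8 libraries its adjusted p was 0.221. Without treatment replicates 1 and 2, the libraries low in Ddx3y, Il1r2 was at -1.07 (adjusted p = 0.0329).

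**Figure D3:**
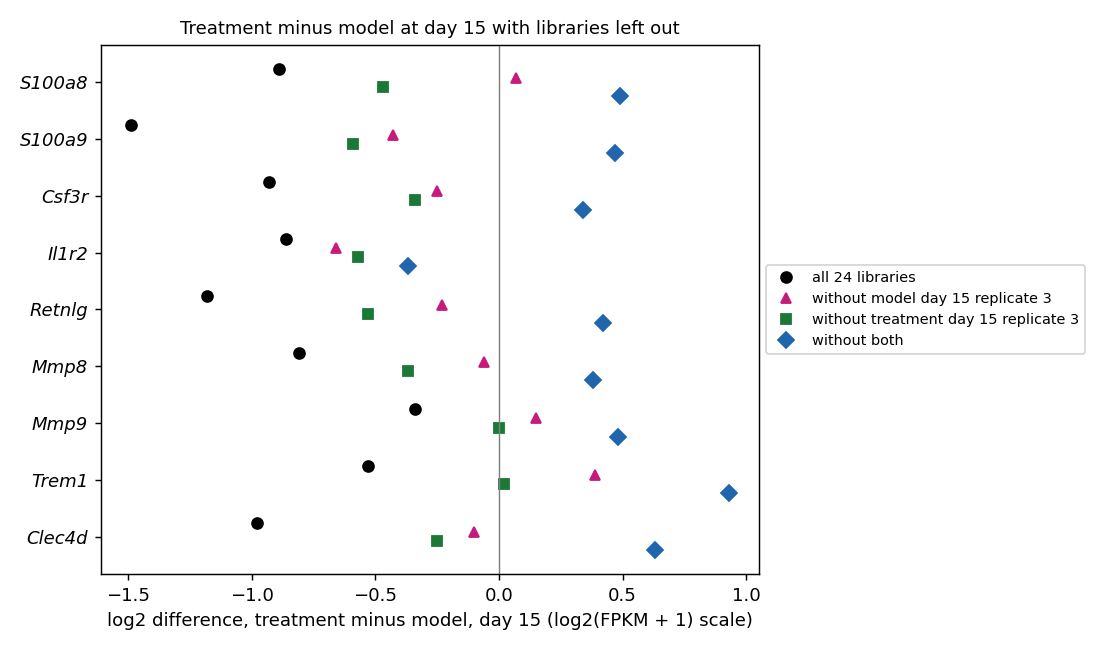
Treatment minus model difference of log2(FPKM + 1) at day 15 for each of the 9 genes, from all 24 libraries (black circles), without model day 15 replicate 3 (triangles), without treatment day 15 replicate 3 (squares) and without both (diamonds). All circles lie below 0, and all diamonds but that of Il1r2 (-0.37) lie above 0. The libraries left out for the diamonds are the highest of model and the lowest of treatment, which can only raise the difference.

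The change of the treatment minus model difference between days was negative for 8 of 9 genes, all but Mmp9, and 0 were called by limma (lowest adjusted p 0.222, that of Il1r2, with a log2 difference of -0.90 and SE 0.33), 1 at an unadjusted p under 0.05 and 0 by voom, against 0.0997% of all genes. With treatment and model day 15 replicates 3 left out, 5 of the 8 turned positive (S100a8, S100a9, Csf3r, Retnlg and Trem1), between 0.17 for S100a8 and 0.67 for Trem1. Leaving out these libraries raises the day 15 difference by construction.

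Treatment was set against control to see how far DHT-injected skin with the extract differed from skin with neither. The control libraries are those of the model comparison, so these differences are not independent of it. At day 10 every treatment library was above every control library for 8 genes, all but Mmp9, where 11.4% of all genes were higher in this way. S100a9 was called, at 71.2 ± 12.7 FPKM in treatment and 5.81 ± 2.15 in control skin (log2 difference 3.45, SE 0.95, adjusted p = 0.0492, limma), 1 of 9 against 2.2% of all genes called higher. Clec4d, at 17.4 ± 5.76 and 1.46 ± 0.178 FPKM in treatment and control (log2 difference 2.85, SE 0.83, adjusted p = 0.0584), and Il1r2 (0.81, SE 0.23, adjusted p = 0.0584) missed the threshold. The call of S100a9 was lost without any 1 of the 8 libraries (adjusted p from 0.0659 to 0.147), with median-of-ratios scaling (0.0527), with no filter (0.0574) and with voom (0.211), whereas 8 of 9 were called in a fit of only these 8 libraries, all but Mmp9. Kap separated these groups as well, and its part in the result was not tested.

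At day 15 treatment and control skin overlapped for all 9 genes, where 3.1% of all genes were higher and 4% lower without overlap, and 0 were called by limma (adjusted p from 0.406 to 0.993), 0 at an unadjusted p under 0.05 and 0 by voom, against 0.314% of all genes. Log2 differences lay between -0.01 for Il1r2 and 1.04 for S100a9, with a median of 0.75, against -0.02 over all genes. With treatment and model replicates 3 left out, S100a9 (1.94, adjusted p = 0.0395), Csf3r (1.35, adjusted p = 0.00359) and Mmp8 (1.25, adjusted p = 0.00275) were called higher in treatment. Without treatment replicates 1 and 2 none was, and Clec4d was at -0.24. Leaving out treatment replicate 3, the lowest of its group for all 9 genes, could only raise the differences from control.

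Time was compared within each treatment. In control skin all 9 genes had a higher mean at day 15 than at day 10, and 6 (S100a8, S100a9, Csf3r, Mmp9, Trem1 and Clec4d) did so without overlap, where 7.01% of all genes did. S100a9 averaged 45.8 ± 53.2 FPKM at day 15 and 5.81 ± 2.15 at day 10, and Clec4d 14.9 ± 11.99 at day 15 and 1.46 ± 0.178 at day 10. None was called by limma (lowest adjusted p 0.0966, that of Clec4d), 3 at an unadjusted p under 0.05 and 0 by voom, against 4.81% of all genes, and 3 were called in a fit of only these 8 libraries. The median log2 difference of the 9 was 1.24, against -0.07 over all genes. Kap and day cannot be told apart here.

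In model skin the day 15 mean was above the day 10 mean for all 9 genes, with a median log2 difference of 1.36, against -0.08 over all genes, and all groups overlapped, where 2.65% of all genes were higher and 12.8% lower without overlap. None was called by limma (lowest adjusted p 0.129), 4 at an unadjusted p under 0.05 and 0 by voom, against 8.47% of all genes, and 2 were called without model day 15 replicate 2. In treatment skin 5 of the 9 had a higher log2 mean at day 15, with a median difference of 0.21, against -0.06 over all genes, and none was called by limma (lowest adjusted p 0.202), 0 at an unadjusted p under 0.05 and 0 by voom, against 9.64% of all genes. With treatment and model day 15 replicates 3 left out, 1 member, Mmp9, was called higher at day 15 in treatment skin.

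The FPKM ratio of S100a8 to S100a9, a measure chosen after the values were seen, was 0.987 to 4.35 in treatment, 0.787 to 1.32 in model and 1.08 to 2.95 in control libraries of day 15. At day 10 it was 0.939 to 1.07 in treatment, 0.823 to 1.22 in model and 3.19 to 6.08 in control libraries. Two-sided exact permutation tests of the log2 ratio were run for 9 comparisons, and none passed after adjustment over the 9: the lowest adjusted p was 0.0857, for model and for treatment against control at day 10 and for day 15 against day 10 in control, where p was 0.0286, the smallest that 4 against 4 allows.

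**Figure D4:**
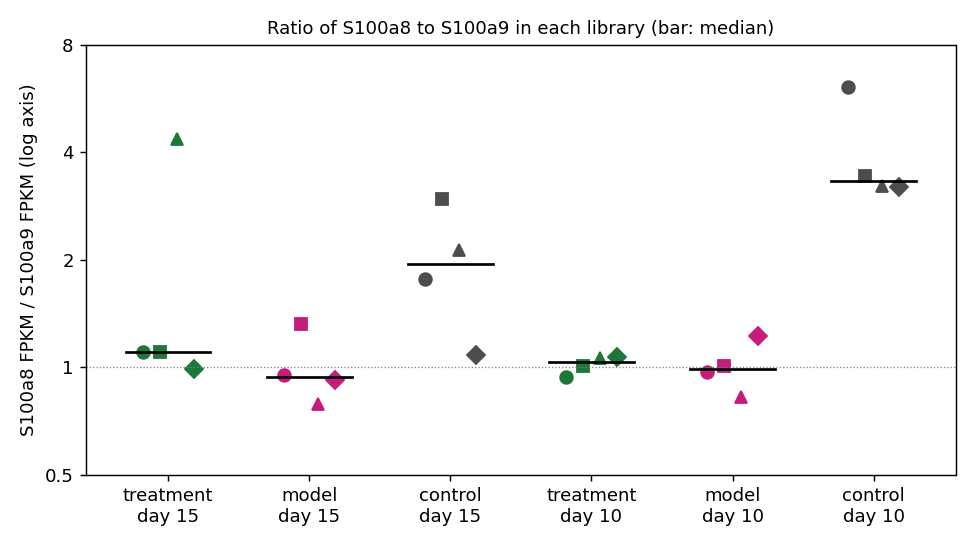
Ratio of S100a8 to S100a9 FPKM (log axis) in each library (points, 1 symbol per replicate number) with the group median (bar), for treatment, model and control at day 15 and day 10. Control day 10 libraries lie between 3.19 and 6.08, apart from model (0.823 to 1.22) and treatment (0.939 to 1.07), and treatment day 15 replicate 3 stands at 4.35.

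Other genes listed for neutrophils were examined beside the 9, and the cells that held them were not identified. Ly6g, the classical surface marker of mouse neutrophils, was at 0 in all 4 control day 10 libraries and reached 2.87 FPKM in model day 15 replicate 3. Of the primary granule genes, Mpo (myeloperoxidase) was at 0.541 FPKM and Elane (neutrophil elastase) at 0.439 FPKM at most, whereas Prtn3 (proteinase 3) was at 0.629 to 8.94 FPKM. Of the secondary granule genes, Ngp and Ltf were at 0.988 and 1.28 FPKM at most. Not all granule genes were this low: Camp averaged 2.30 ± 1.16 FPKM in model skin at day 15, and Chil3 11.2 ± 5.07 in treatment skin at day 10. Lcn2 was high in model day 15 replicate 3, as given below. Cxcr2, the chemokine receptor that guides mature neutrophils, had 42.5 FPKM in model day 15 replicate 3 and averaged 4.13 ± 0.784 in treatment, 2.002 ± 0.631 in model and 0.402 ± 0.163 FPKM in control skin at day 10. Cxcr2 was above 0 in all 24 libraries, its lowest value being 0.221 FPKM.

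Of 14 granule protein genes 7 were tested, and at day 10 Hp (haptoglobin) and Lyz2 (lysozyme, shared with macrophages) rose in model over control skin and 0 fell. Hp was at 793 ± 169 FPKM in model and 339 ± 106 in control skin (log2 difference 1.27, SE 0.26, adjusted p = 0.00628, limma). That control level stood beside a Csf3r level of 0.826 FPKM, and the cells that held Hp were not identified. At day 15 Pglyrp1, a bacterial wall-binding protein, rose by 1.52 (SE 0.33, adjusted p = 0.0106) and Camp, the cathelicidin, by 1.12 (SE 0.33, adjusted p = 0.0385) in model over control. Of all genes, 6.79% were called higher in model at day 10 and 4.23% at day 15. None of the 7 was called between treatment and model by limma at either day, 2 at an unadjusted p under 0.05 at day 15 and 0 at day 10. All genes called there made up 19.7% at day 15 and 0.192% at day 10. Treatment was above control for Hp and Chil3 at day 10, against 2.2% of all genes called higher. At day 15 0 of 7 were called by limma (1 at an unadjusted p under 0.05), against 0.314% of all genes. With both replicates 3 of day 15 left out, Pglyrp1 was called higher than in control in model (1.11, adjusted p = 0.00519) and in treatment (1.13, adjusted p = 0.00127), and Camp was not called in model over control (0.92, adjusted p = 0.0785).

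Of 12 surface receptor genes tested, 4 rose and 0 fell in model over control skin at day 10: C5ar1, the receptor of complement C5a, Itgam and Itgb2, subunits of an adhesion integrin, and Fcgr3, an IgG receptor. C5ar1 was at 18.2 ± 4.96 FPKM in model and 4.98 ± 1.27 in control skin (log2 difference 1.68, SE 0.34, adjusted p = 0.00559, limma). At day 15, 2 rose, Tlr4 and Fcgr3, against 4.23% of all genes called higher at day 15 and 6.79% at day 10. Tlr4, which recognises bacterial lipopolysaccharide and also S100a8, was the 1 receptor lower in treatment than in model skin at day 15, with 6.01 ± 2.46 FPKM in treatment and 12.5 ± 6.04 in model skin (log2 difference -0.93, SE 0.24, adjusted p = 0.0129, limma), and at -0.43 (adjusted p = 0.095) with both replicates 3 left out. That 1 of 12 was near the 9.32% of all genes called lower. Against control, C5ar1 and Itgam were called higher in treatment at day 10 and 0 of 12 at day 15 by limma (0 at an unadjusted p under 0.05). The shares of all genes were 2.2% called higher at day 10 and 0.314% called in either direction at day 15. With both replicates 3 left out, 3 of 12 were called higher in treatment than in control at day 15, C5ar1 (0.82, adjusted p = 0.0163), Cxcr2 (1.25, adjusted p = 0.027) and Fcgr3 (0.87, adjusted p = 0.0132), and 1, Ltb4r1, a leukotriene B4 receptor, was higher than in model (0.56, adjusted p = 0.0379).

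Of 14 oxidase, extracellular trap and transcription factor genes tested, 5 rose and 2 fell in model over control skin at day 10. Of all genes, 6.79% were called higher and 7.04% lower there. Ncf1, a subunit of the NADPH oxidase, was at 21.3 ± 4.13 FPKM in model and 7.60 ± 1.012 in control skin (log2 difference 1.36, SE 0.27, adjusted p = 0.00506, limma). Padi4, the enzyme that citrullinates histones in extracellular traps, fell to 12.6 ± 4.65 FPKM in model skin, against 28.2 ± 9.23 in control skin (log2 difference -1.10, SE 0.23, adjusted p = 0.00576, limma). Csf3r was at 0.826 FPKM in the same control skin, and the cells that held Padi4 were not identified. At day 15 1 rose, Cebpd, and 1 fell, Padi4, against 4.23% of all genes called higher and 6.56% lower. Between treatment and model at day 15, Padi4 was higher by 0.71 (SE 0.23, adjusted p = 0.032) and Slfn4, a gene of activated myeloid cells, lower by a log2 difference of -2.55 (SE 0.82, adjusted p = 0.0343), and 0 of 14 were called at day 10 (1 at an unadjusted p under 0.05). At day 15 this was 1 of 14 in each direction, near the 10.3% of all genes called higher and 9.32% called lower. At day 10 0.192% of all genes were called between treatment and model. With both replicates 3 left out neither Padi4 nor Slfn4 was called (0.63, adjusted p = 0.0847, and -1.50, adjusted p = 0.171), and 2 genes, Padi4 and Stfa2, were called lower in model than in control.

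Ligands, inhibitors and signalling partners of the 9 genes numbered 18 tested. In model over control 4 rose and 0 fell at day 10, Timp2 (an inhibitor of matrix metalloproteinases), Fcer1g, Tyrobp and Syk, the last 3 from the signalling chain of Trem1 and Clec4d. At day 15 4 rose, Pglyrp1, Il1rap, Tlr4 and Il1r1, against 4.23% of all genes called higher at day 15 and 6.79% at day 10. Il1r1, the signalling receptor that shares its ligands with Il1r2, was at 24.1 ± 9.55 FPKM in model and 15.4 ± 1.21 in control skin (log2 difference 0.55, SE 0.17, adjusted p = 0.0423, limma). Of all genes, 9.32% were called lower in treatment than in model at day 15, and 0.192% in either direction at day 10. Treatment was below model at day 15 for 4 of 18, Il1rap (-0.53, SE 0.12, adjusted p = 0.00504), Tlr4, Il1r1 (-0.55, SE 0.17, adjusted p = 0.0276) and Stat3 (-0.47, SE 0.16, adjusted p = 0.0475), and 0 were called at day 10. The decoy receptor Il1r2, its competitor Il1r1 and their partner chain Il1rap were therefore all called in the same direction at day 15, higher in model than in control and lower in treatment than in model. Il1a, Il1b and Il1rn, also in the list, were not among the genes called in these comparisons with all libraries. With both replicates 3 left out, the list had 4 higher and 1 lower in model against control and 2 higher and 1 lower in treatment against model, with Il1rap called in both (0.33, adjusted p = 0.0372, and -0.32, adjusted p = 0.0309) and Il1r1 in neither (0.32, adjusted p = 0.0987, and -0.27, adjusted p = 0.147). Stat3 was then at -0.17 (adjusted p = 0.409) in treatment against model. Il1r2 kept its call against control in that fit (0.65, adjusted p = 0.0161, limma) and lost its call in treatment against model. The 1 gene of the list then lower in model than in control was Il1a (-0.70, adjusted p = 0.0493, limma). Between treatment and control at day 15, 0 of 18 were called with all libraries. With both replicates 3 left out, 5 were higher and 1 lower in treatment, Il1b among the higher (3.41, adjusted p = 0.0051, limma).

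Markers of other cell types moved beside the members. Of 14 macrophage and monocyte genes 10 rose and 0 fell in model over control at day 10, with summed levels of 853 to 1225 FPKM in model and 392 to 499 in control libraries. Of all genes, 6.79% were called higher and 7.04% lower there. At day 15 5 rose, with sums of 1050 to 1875 in model and 559 to 954 in control libraries, and 5 were lower in treatment (425 to 1604) than in model. The shares of all genes were 4.23% called higher in model than in control and 9.32% lower in treatment than in model. Mrc1, the macrophage mannose receptor, was at 59.5 ± 20.3 FPKM in treatment and 102 ± 15.0 in model skin at day 15 (log2 difference -0.83, SE 0.19, adjusted p = 0.00686, limma). With both replicates 3 left out, 6 macrophage genes were called higher in model than in control and 3 lower in treatment than in model, Mrc1 among them (-0.53, adjusted p = 0.0239). Against control at day 15, 0 of 14 were called in treatment with all libraries. With both replicates 3 left out 7 were called higher, Csf1r among them (0.98, adjusted p = 0.00167, limma). Treatment replicate 3 had the lowest sum of its group, so leaving it out raised the summed treatment level. At day 10, 6 macrophage genes were higher in treatment than in control, against 2.2% of all genes. Of 9 stressed-keratinocyte genes tested, 5 fell in model against control at each day, 6 were higher in treatment than in model at day 10 and 4 at day 15 (2 with both replicates 3 left out). All genes called lower in model than in control made up 7.04% at day 10 and 6.56% at day 15. Those called higher in treatment than in model made up 0.092% at day 10 and 10.3% at day 15. The summed level of these keratinocyte genes was 744 to 1039 FPKM in treatment, 503 to 632 in model and 684 to 1016 in control libraries at day 10. Basal keratinocyte genes fell in 4 of 8 in model against control at day 15 (2 with both replicates 3 left out) and in 2 of 8 at day 10, mast cell and eosinophil genes in 1 of 6 at day 10 (Kit), and 0 of 5 T and B cell genes were called by limma in any of these 6 comparisons (1 at an unadjusted p under 0.05, in model against control at day 15). In treatment against control at day 15, with both replicates 3 left out, 4 basal and 2 stressed-keratinocyte genes were called lower and 1 mast cell gene higher. None of these was called there with all libraries. The part of all these lists in the levels of the 9 genes was not tested.

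**Figure D5:**
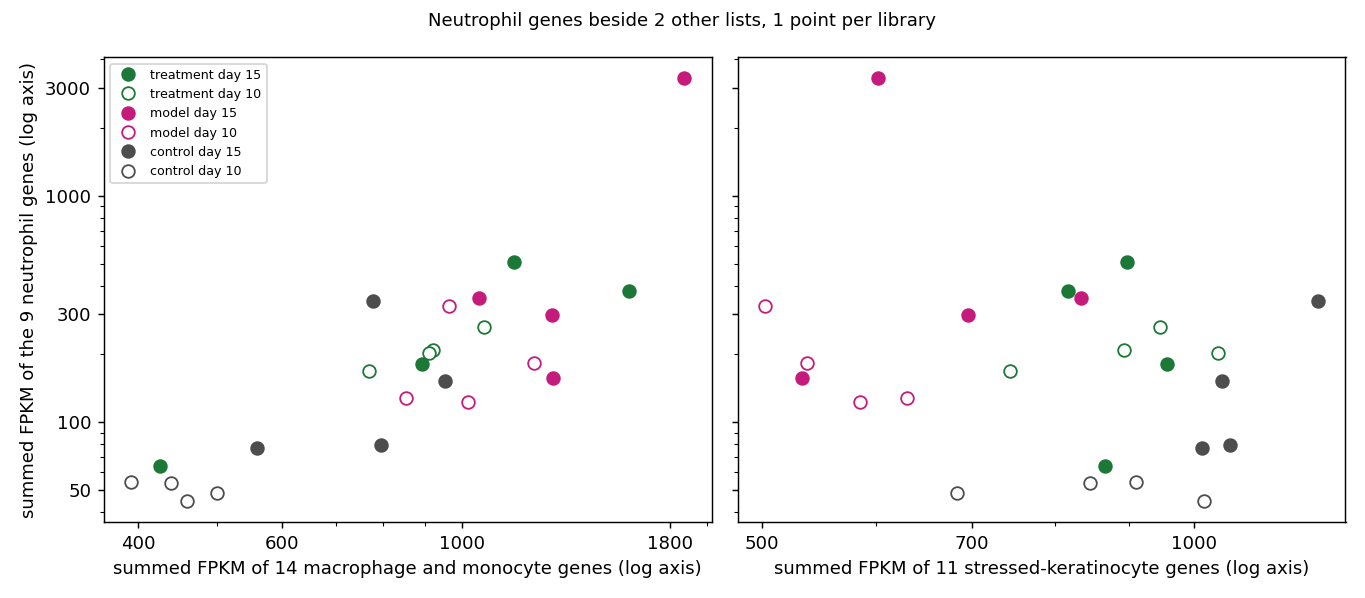
Summed FPKM of the 9 neutrophil genes (vertical, log axis) against the summed FPKM of 14 macrophage and monocyte genes (left) and of 11 stressed-keratinocyte genes (right), 1 point per library, with filled points for day 15 and open points for day 10. The control day 10 libraries sit at 44.8 to 54.6 FPKM of neutrophil genes and 392 to 499 of macrophage genes, and model day 15 replicate 3 at 3302 and 1875.

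The 8 other genes whose levels ran most like the mean standardised level of the 9 across the 24 libraries were Mcemp1 (Pearson's r 0.968), Cxcr2 (0.966), Ccr1 (0.964), Stfa2l1 (0.964), Snx20 (0.964), Hdc (0.963), Csf2rb (0.958) and Cd300lf (0.958). These are descriptions over 24 libraries that share the extreme library model day 15 replicate 3, and without it the values were 0.924 to 0.95. Mcemp1 is a membrane protein first described in mast cells, Ccr1 a chemokine receptor, Hdc the enzyme that makes histamine, Csf2rb the shared receptor chain for GM-CSF and interleukin-3, and Cd300lf an immunoglobulin-like receptor of myeloid cells. Stfa2l1 belongs to the stefin A genes, whose close copies may share reads. Mcemp1 averaged 4.61 ± 4.35 FPKM in treatment, 10.9 ± 14.9 in model and 2.17 ± 0.993 in control skin at day 15, and 2.38 ± 0.669 in treatment, 2.35 ± 0.98 in model and 0.435 ± 0.39 in control skin at day 10. None of the 8 was called between model and control or between treatment and model at either day by limma, the nearest being Ccr1 in model against control at day 10 (log2 difference 1.74, SE 0.61, adjusted p = 0.062).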

How the data were processed

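Poly(A) RNA of mouse skin was sequenced in 24 libraries. Per the submitters' processing notes, fastp, HISAT2 and HTSeq were used with genome build GRCm39, and versions, the annotation and strand settings are not given in the sources used here. The authors deposited FPKM for 18892 symbols. Per library, column totals were 413100 to 455900. Values were used as log2(FPKM + 1), which understates changes of low genes. A gene needed 4 libraries at 1 FPKM or more to be tested, which kept 13039 and removed 5853. Limma 3.58.1 under R 4.3.3 fitted 1 mean per group to all 24 libraries (eBayes with trend and robust), with two-sided p-values adjusted over all genes by the Benjamini-Hochberg method in each of 11 comparisons, and calls under 0.05. The script was tested on simulated data. All 9 genes passed the filter, so the planned exact permutation test for genes under it was not needed. Whole reads were recovered for 18714 of 18715 genes above 0, within 0.01 of a read (0.05 above 1000 reads), and served the voom alternative. Libraries were grouped by sample title, 1 mouse each. Alternatives were a pseudocount of 0.1, no filter, median-of-ratios scaling, a fit of only the groups compared, the replicate number as a block, voom, each library left out in turn, and 2 fits with libraries left out together, chosen after the values were seen. The genes named beside the 9 were at most the 4 called genes with the smallest p of each of 13 other lists (the 2 with the smallest p where none was called), genes at or near 0 or chosen after their values were seen (Ly6g, Mpo, Elane, Ngp, Ltf, Lcn2, Prtn3, Ltb4r1, Stfa2, Il1a, Il1b, Il1rn, Mmp2, Mmp23, Kap, Ddx3y), and the 8 most like the mean of the 9. The 9 genes and the lists were chosen with earlier results of these data known.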

Additional observations from a re-analysis of the deposited data

Results flagged for a closer look

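Each group of 4 libraries was examined for each of the 9 genes for a library whose gap to the nearest other is a larger share of the range of its group than Dixon's 95% critical value allows. Of 54 groups 12 held such a library. Chance gives about 1 in 20 only for normally distributed values, and FPKM was used here without the log. The 9 genes are not independent of each other. In 8 of the 12 it was model day 15 replicate 3, the highest of its group for S100a8 (1235 FPKM), S100a9 (1569), Csf3r (55.9), Retnlg (114.8), Mmp8 (22.1), Mmp9 (16.2), Trem1 (31.4) and Clec4d (190.9). The same library held 515 FPKM of Il1b, 302.5 of Cxcl2 and 332 of Lcn2, and its part in the group means is given with the comparisons of day 15.

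Within their own groups of 4, Trem1 was highest of the model day 10 libraries in replicate 3, at 3.75 FPKM, and Mmp8 in replicate 4, at 2.08 FPKM. Of the treatment day 10 libraries, Csf3r was lowest in replicate 4, at 4.31 FPKM, and Retnlg was highest in replicate 3, at 5.92 FPKM. No cause of these values was tested.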

How the results depend on the processing

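Calls of the 9 genes depended on single libraries, on which groups were fitted together and on other settings of the fit. For model minus control at day 10 (3 called) the count was 7 in a fit of only the groups compared and 1 with voom on recovered reads, for model minus control at day 15 (1) it was 0 in a fit of only the groups compared and 3 with model and treatment replicates 3 of day 15 left out, and for treatment minus model at day 15 (1) it was 0 in both. For treatment minus control at day 10 (1) it was 3 with a pseudocount of 0.1, 8 in a fit of only the groups compared, and 0 with no filter, with median-of-ratios scaling, with the replicate block and with voom. At day 15 (0) it was 3 with both replicates 3 left out, for day 15 minus day 10 (0) it was 3 in control with only the groups compared and 1 in treatment with both replicates 3 left out. Leaving out 1 library gave counts of 0 to 4 for model minus control at day 10, 0 to 3 at day 15, 0 to 1 for treatment minus model at day 15, 0 to 0 for treatment minus control at day 10 and 0 to 2 for day 15 minus day 10 in model. The cause of these changes in count was not tested.

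With both replicates 3 left out, treatment minus model at day 15 turned to 0.49 (S100a8), 0.47 (S100a9), 0.34 (Csf3r), 0.42 (Retnlg), 0.38 (Mmp8), 0.48 (Mmp9), 0.93 (Trem1) and 0.63 (Clec4d). Treatment minus control at day 15 turned to 0.29 for Il1r2 with both replicates 3 left out and to 0.03 with median-of-ratios scaling, and to -0.24 for Clec4d without treatment replicates 1 and 2. Over single libraries left out, differences that changed sign ranged, for treatment minus model at day 15, from -1.48 to 0.07 (S100a8), -0.52 to 0.15 (Mmp9) and -1.04 to 0.39 (Trem1). At day 10 they ranged from -0.00 to 0.17 (Csf3r), -0.04 to 0.12 (Il1r2) and -0.09 to 0.24 (Retnlg). For treatment minus control at day 15 they ranged from -0.16 to 0.29 (Il1r2) and -0.20 to 1.08 (Clec4d).

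For day 15 minus day 10 in treatment, differences turned to 0.70 (S100a9), 0.20 (Mmp8) and 0.55 (Clec4d) with both replicates 3 left out and to -0.18 (Csf3r) without treatment replicates 1 and 2, and over single libraries left out they ranged from -0.05 to 0.75 (S100a8), -0.78 to 0.70 (S100a9), -0.12 to 0.81 (Csf3r), -0.47 to 0.20 (Mmp8) and -0.73 to 0.55 (Clec4d). The change of model minus control between days turned to -0.73 (S100a8), -0.12 (Il1r2), -0.52 (Retnlg) and -0.45 (Trem1) with both replicates 3 left out, to 0.03 (Csf3r) with median-of-ratios scaling, and for Trem1 to -0.63 with a pseudocount of 0.1 and -2.99 with voom. Over single libraries it ranged from -0.73 to 0.82 (S100a8), -1.69 to 0.10 (S100a9), -0.71 to 0.42 (Csf3r), -0.12 to 0.25 (Il1r2), -0.52 to 1.10 (Retnlg), -0.67 to 0.13 (Mmp9) and -0.45 to 0.98 (Trem1). The change of treatment minus model between days turned to 0.17 (S100a8), 0.18 (S100a9), 0.27 (Csf3r), 0.34 (Retnlg) and 0.67 (Trem1) with both replicates 3 left out and to -0.24 (Mmp9) without treatment replicates 1 and 2, and over single libraries it ranged from -0.22 to 0.58 (Mmp9) and -1.30 to 0.13 (Trem1). Over 99 single-gene differences and their alternatives, 1486 values kept their direction and side of the threshold, 44 lost a call, 29 gained one and 70 changed sign.

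Replicate numbers mark different mice. Of 60 pairs of libraries with the same number 21 deviated together (correlation over 0.1, range -0.631 to 0.509). With the number as a block, counts were 2 for model minus control at day 10 and 0 for treatment minus control at day 10, and equal to the main count in the other comparisons. Both fits with libraries left out together were chosen after the values were seen. Depth limits Trem1, Mmp8 and Retnlg in control day 10 skin, with 0 to 47 reads a library.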

Other observations

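Neutrophil attractants and the cytokines that raise neutrophil numbers were measured beside the 9 genes, with 8 of 14 listed genes tested. None was called between any 2 treatments of 1 day by limma, with 1 (model against control, day 10), 2 (treatment against control, day 10) and 2 (treatment against control, day 15) at an unadjusted p under 0.05. The share of all genes called ran from 0.192% (treatment against model, day 10) to 19.7% (treatment against model, day 15). Their summed level was 5.41 to 293 FPKM in treatment, 14.1 to 710.0 in model and 7.70 to 192 in control libraries of day 15, and 12.8 to 49.8 in treatment, 4.24 to 142 in model and 1.21 to 2.21 in control libraries of day 10. The highest sum was that of model day 15 replicate 3. Cxcl2, a chemokine bound by Cxcr2, was at 302.5 FPKM there, and Cxcl1, another, was highest in treatment day 15 replicate 2, at 128 FPKM. With model and treatment day 15 replicates 3 left out, 3 of 8 were called higher in treatment than in model skin at day 15 and 3 higher than in control skin, Cxcl1, Csf3 (G-CSF, the ligand of Csf3r) and Il6 in both. For Cxcl1 the log2 differences were 3.24 (adjusted p = 0.0171) and 3.40 (adjusted p = 0.00777, limma), and for Csf3 1.72 (adjusted p = 0.000776) and 2.10 (adjusted p = 0.000234, limma). Treatment replicate 3 had the lowest sum of its group and model replicate 3 the highest. Leaving both out thus raised the summed treatment level and lowered that of model, by a choice made after the values were seen. With all libraries, Csf3 was at 1.49 (SE 0.56, adjusted p = 0.154, limma) and Il6 at 1.88 (SE 0.87, adjusted p = 0.239, limma) in treatment against control at day 15.

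Other members of the gene families held different patterns. Of 9 other matrix metalloproteinase genes tested, Mmp14 was the 1 called between model and control at each day, at 137 ± 19.7 FPKM in model and 81.7 ± 7.92 in control skin at day 15, and it was lower in treatment than in model at day 15 (log2 difference -0.65, SE 0.20, adjusted p = 0.028, limma). It was the 1 of 9 called lower, against 9.32% of all genes. With model and treatment day 15 replicates 3 left out, that call was lost (-0.43, adjusted p = 0.102), and 3 genes, Mmp14, Mmp2 and Mmp23, were called higher in model than in control at day 15. In the same fit 4 of the 9 were called higher in treatment than in control at day 15, against 0 with all libraries. Of 11 other S100 genes tested, S100a16, S100a14 and S100a3 fell and S100a7l2 rose in model against control at both days, and with both replicates 3 left out S100a3 was not called at day 15 (-0.54, adjusted p = 0.0511). S100a16 was at 247 ± 27.5 FPKM in treatment, 175 ± 23.99 in model and 235 ± 17.9 in control skin at day 15. Of 9 genes of erythrocytes and platelets tested, 3 rose and 1 fell in model against control at day 10, 2 fell at day 15 (1 with both replicates 3 left out), and 4 were higher in treatment than in control at day 10. Of all genes, 6.79% rose and 7.04% fell in model at day 10, 6.56% fell at day 15, and 2.2% were higher in treatment than in control at day 10. At day 15 treatment against control had 0 blood genes called with all libraries, and 4 higher and 1 lower with both replicates 3 left out.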
